A study of Mus musculus with 12 samples.

Results

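AP-1 is a family of transcription factors built from pairs of Fos proteins (encoded by Fos, Fosb, Fosl1 and Fosl2) and Jun proteins (Jun, Junb and Jund), which hold each other through a leucine zipper. Atf3, a stress-induced factor of the ATF/CREB group, and Maff, a small Maf protein that has no activation domain of its own, carry zippers of the same kind, as does Batf3, a partner of Jun proteins in immune cells. The genes were chosen by name, as the rows of the deposited expression table that carry these 10 symbols. Of the 13552 genes in the table, 9 are members of this set, and Batf3 was not analysed here. Fos, Fosb, Junb and Atf3 belong to the immediate early genes, which cells transcribe within minutes of a stimulus without new protein synthesis, and the kinases ERK, JNK and p38 act on their promoters and on the proteins they encode. In the heart, stretch, hormones and pressure overload are textbook triggers of this response.

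Hearts were taken 9 h after surgery from 12 male C57BL/6J mice, which were 8 to 10 weeks old at the operation, in 4 groups of 3 mice: wild type (WT) mice after sham surgery or TAC, and mice homozygous for the S14A knock-in of Bcl-xL (KI) after either operation. Transverse aortic constriction (TAC) narrows the aorta, so that the left ventricle has to pump against a higher pressure, and sham mice were operated on without the constriction. In KI mice, serine 14 of Bcl-xL is alanine in every cell of the body, through a change of 1 codon in embryonic stem cells whose selection cassette was later removed with Cre. The WT mice were bought rather than bred as littermates, mice were not randomized, and animals that died of the surgery are not among those sequenced. The design compares TAC with sham hearts of each genotype, and KI with WT hearts after the same operation. Each library is the poly(A) RNA of 1 heart, sequenced as reads of 75 bases. Values are in RPKM, which divide the reads of a gene by its exon length and by the total of its library, so levels of different genes are compared per length.

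The libraries held 23650215 to 32455350 reads on genes, recovered from the steps between low values. All 6 cardiomyocyte markers (Myh6, Tnnt2, Tnni3, Actc1, Ryr2 and Pln) were measured and together reached 11410 to 21790 RPKM in every heart. KI TAC mouse 5 stood apart from the other 11 hearts. It had the highest value of the 12 hearts in 8 of the 9 members, against 7.46% of the 11240 genes tested, and in 6 of them more than 2 times the next highest, against 0.961%. Its library had 30298087 reads on genes, and its median-ratio scaling factor of 0.829 was the lowest of the 12, next to 0.929 to 1.12 in the others. Fitted changes that involve this heart's group are therefore also given without it. In tissue, fewer cells of a type and less RNA per cell cannot be told apart.

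To show what stands in front of these genes, the 250 bases before the transcription start in RefSeq (GRCm38.p6) were searched on both strands for the AP-1 element TGACTCA, the cAMP response element TGACGTCA, and the related forms TGACATCA and TGACGTA. Windows were found for 9 of the 10 genes, with more than 1 start for Maff and none for Fosl1. The RefSeq starts need not match the ends of the genes given below. The Atf3 start used here lies within that gene, which ends at base 191218039 on the minus strand. The Jund window ends at base 70697738, before the gene's listed start at 70698949. The windows shown hold 1 of these forms, and there is 1 each for Fos, Atf3 and Maff, which rose in the KI hearts, and for Jun, which did not pass the test there. Of the 2 Maff windows with a match, the one with TGACGTCA is shown. Fosb, Fosl2 and Junb, which also rose in KI hearts, hold none of these forms in their windows, and neither does Jund. Capitals mark the match, and in Fos also the TATA box.

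Fos, chr12:85473640-85473889, plus strand: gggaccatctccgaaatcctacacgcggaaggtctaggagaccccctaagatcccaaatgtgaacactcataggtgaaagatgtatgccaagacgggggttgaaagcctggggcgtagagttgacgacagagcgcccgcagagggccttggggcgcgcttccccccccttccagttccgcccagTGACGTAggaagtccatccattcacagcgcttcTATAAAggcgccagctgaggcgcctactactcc
Atf3, chr1:191183334-191183583, minus strand: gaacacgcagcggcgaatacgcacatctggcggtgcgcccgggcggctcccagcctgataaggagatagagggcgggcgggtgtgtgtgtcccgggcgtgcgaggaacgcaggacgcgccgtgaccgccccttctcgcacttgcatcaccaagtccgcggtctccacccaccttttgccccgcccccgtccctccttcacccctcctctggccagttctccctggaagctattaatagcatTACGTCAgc
Maff, chr15:79347270-79347519, plus strand: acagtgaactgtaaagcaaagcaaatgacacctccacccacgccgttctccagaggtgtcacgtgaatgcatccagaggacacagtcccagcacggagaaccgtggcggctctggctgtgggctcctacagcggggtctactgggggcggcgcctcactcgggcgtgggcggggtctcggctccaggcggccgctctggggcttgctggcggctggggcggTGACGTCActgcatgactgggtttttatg
Jun, chr4:95052223-95052472, minus strand: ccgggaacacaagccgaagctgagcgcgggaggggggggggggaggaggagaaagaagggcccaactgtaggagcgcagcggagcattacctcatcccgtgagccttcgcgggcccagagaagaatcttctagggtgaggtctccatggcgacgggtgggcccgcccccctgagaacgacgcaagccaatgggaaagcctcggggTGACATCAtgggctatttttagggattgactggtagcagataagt

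TGACGTA lay 66 to 60 bases before the start of Fos and, on the opposite strand, 9 to 3 bases before that of Atf3, and 1.08% of the 32851 promoter windows hold it. TGACGTCA lay 29 to 22 bases before this start of Maff (1.55% of all windows hold it), and TGACATCA lay 45 to 38 bases before the start of Jun and also before another start of Maff (2.93%). TGACTCA was in no window of these genes (4.46% of all windows). The CArG box, the motif of serum response factor, was likewise not found in these 250 bases (1.47%), and TATAAA, read on the gene's strand only, was found in Fos (7.59%). These motifs were chosen after the sequences had been seen, and a match describes the letters, not binding.

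Under sham surgery the Jun genes made up most of the set. Jund, which is expressed in many resting tissues and restrains growth, was the highest member per length in every sham heart, at 101 to 163 RPKM, followed by Jun at 59.4 to 90.3 RPKM. Jund, Jun and Junb together held 88.8% to 93.4% of the summed RPKM of the 9 genes in sham hearts. Their share was 79.3% to 85.4% in WT TAC hearts, and 38.2%, 60.3% and 77.4% in KI TAC mice 5, 6 and 7. Atf3 held 1.07% to 1.95% of the sum in sham hearts, 2.61% to 5.31% in WT TAC hearts and 7.03% to 37.9% in KI TAC hearts. In KI TAC mouse 5 Atf3 was thus the largest single share, ahead of Jun, while Jund remained the largest in the other 11 hearts. The summed RPKM itself was 190 to 286 in sham hearts, 197 to 476 in WT TAC hearts, 397 and 406 in KI TAC mice 7 and 6, and 1441 in KI TAC mouse 5.

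**Figure D1:**
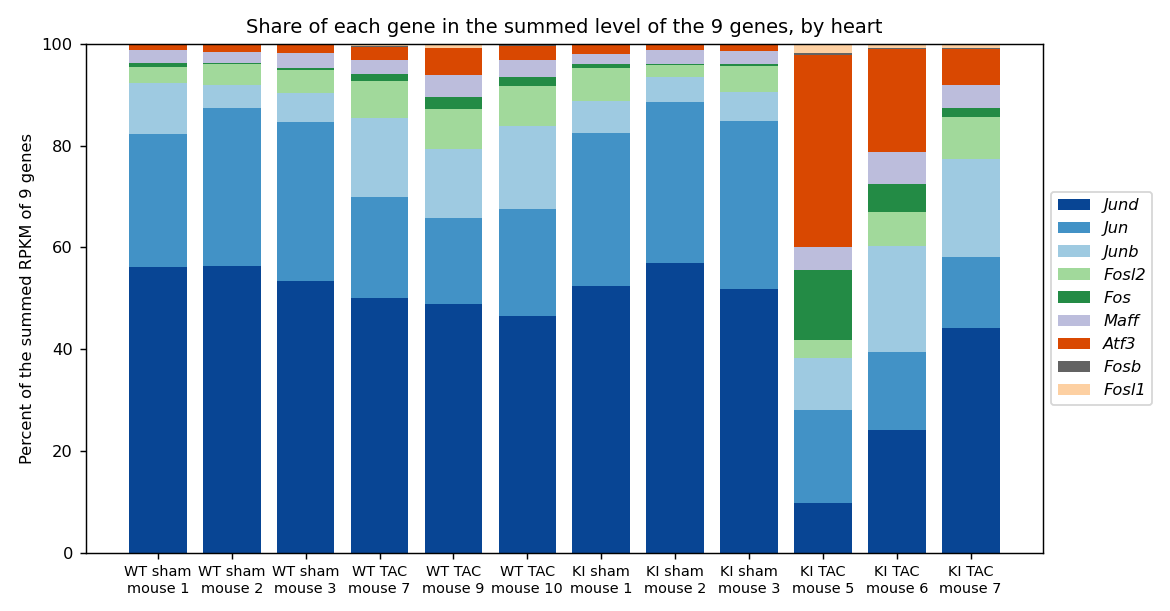
Stacked bars give the percent that each of the 9 genes takes of their summed RPKM (vertical axis, in percent) in each of the 12 hearts. The blue Jun genes fill 88.8% to 93.4% of the sham bars, and orange Atf3 grows to 37.9% in KI TAC mouse 5.

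Fos (ENSMUSG00000021250, chromosome 12, 85473890 to 85477273 of GRCm38, plus strand), the founding partner of Jun in AP-1, measured 2.05, 0.881 and 0.800 RPKM in WT sham mice 1, 2 and 3 and 2.40, 0.634 and 0.485 RPKM in KI sham mice 1, 2 and 3. After TAC it measured 5.75, 11.3 and 3.35 RPKM in WT mice 7, 9 and 10 and 200.2, 22.8 and 7.38 RPKM in KI mice 5, 6 and 7. Every TAC heart lay above every sham heart of its genotype, whereas the WT and KI TAC hearts overlapped, since KI mouse 7 was below WT mouse 9. In KI hearts Fos rose by 4.08 on the log2 scale (SE 0.81, limma adjusted p = 0.00317). The rise fitted in WT hearts was 1.71 (SE 0.81, adjusted p = 0.186), which did not pass the threshold of 0.05. All fold changes here are on the scale of log2(RPKM + 1), which understates the change of genes near 1 RPKM, and standard errors (SE) come from a spread shared by all 4 groups. With KI TAC mouse 5 left out that spread was smaller, the WT change of Fos had a standard error of 0.44 and an adjusted p of 0.0248, and the KI change was 2.80 (adjusted p = 0.00292).

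Fosb (ENSMUSG00000003545, chromosome 7, 19302696 to 19310051, minus strand), a close relative of Fos, was low throughout, at 0.0849 to 0.229 RPKM in the 6 sham hearts. It measured 0.349, 0.763 and 0.172 RPKM in WT TAC mice 7, 9 and 10 and 5.65, 0.946 and 0.782 RPKM in KI TAC mice 5, 6 and 7. The KI TAC hearts lay above all others, and WT TAC mouse 10 fell within the sham range. Only KI TAC mouse 5 reached 1 RPKM, so Fosb did not pass the filter of 1 RPKM in at least 3 mice and was fitted without the filter. In that fit its KI change was 1.33 (SE 0.36, limma adjusted p = 0.0187) and its WT change 0.28 (SE 0.36, adjusted p = 0.650). The KI change without KI TAC mouse 5 was 0.72 (adjusted p = 0.00525).

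Fosl1 (ENSMUSG00000024912, chromosome 19, 5447547 to 5455946, plus strand) encodes Fra-1, a Fos protein without the activation domain of Fos that is usually made later than Fos. In sham hearts it had 9 reads over the 3 WT mice and 12 reads over the 3 KI mice, or 0.0201 to 0.104 RPKM. In TAC hearts it measured 2.01, 3.37 and 0.433 RPKM in WT mice 7, 9 and 10 and 24.3, 2.98 and 3.07 RPKM in KI mice 5, 6 and 7. Every TAC heart was above every sham heart, and the range of the WT TAC hearts reached into that of the KI TAC hearts. The KI change was 2.80 (SE 0.55, limma adjusted p = 0.00298), and 1.92 without KI TAC mouse 5 (adjusted p = 0.00202). The WT change was 1.33 (SE 0.55, adjusted p = 0.133), and it passed without KI TAC mouse 5 (adjusted p = 0.0101), with a pseudocount of 0.1 RPKM (3.34, adjusted p = 0.0115) and with limma-voom on the recovered reads (4.62, adjusted p = 0.0443). Fosl1 passed the filter only through TAC hearts, so that its inclusion among the genes tested was not independent of its change. Ccdc85b, on the opposite strand, shares 57.2% of the exon bases of Fosl1, and although the libraries were made with a strand-specific kit, the strand setting of the counting is not given in the sources used here. Ccdc85b had means of 4.42 and 3.62 RPKM in WT sham and WT TAC hearts and 4.73 and 4.72 RPKM in KI sham and KI TAC hearts, which did not follow those of Fosl1.

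Fosl2 (ENSMUSG00000029135, chromosome 5, 32135801 to 32157842, plus strand), which encodes Fra-2, was the highest Fos gene per length in all 6 sham hearts. It measured 7.43, 10.2 and 8.80 RPKM in WT sham mice 1, 2 and 3 and 17.6, 7.04 and 10.6 RPKM in KI sham mice 1, 2 and 3. TAC values were 32.1, 37.9 and 15.8 RPKM in WT mice 7, 9 and 10 and 51.1, 26.8 and 32.6 RPKM in KI mice 5, 6 and 7. TAC hearts of each genotype lay above the sham hearts of that genotype, and the WT and KI TAC hearts overlapped. Fosl2 rose by similar fitted amounts in both genotypes, 1.51 in WT (SE 0.35, limma adjusted p = 0.0130) and 1.60 in KI hearts (SE 0.35, adjusted p = 0.00500), and the KI change was 1.35 without KI TAC mouse 5 (adjusted p = 0.0247). The interaction of genotype and surgery, which is the difference between these changes, was 0.09 (SE 0.49, adjusted p = 0.942), -0.17 without KI TAC mouse 5, and 4 leave-outs of 1 mouse turned its sign. The WT change lost the threshold without WT TAC mouse 7 (1.39, adjusted p = 0.0572).

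**Figure D2:**
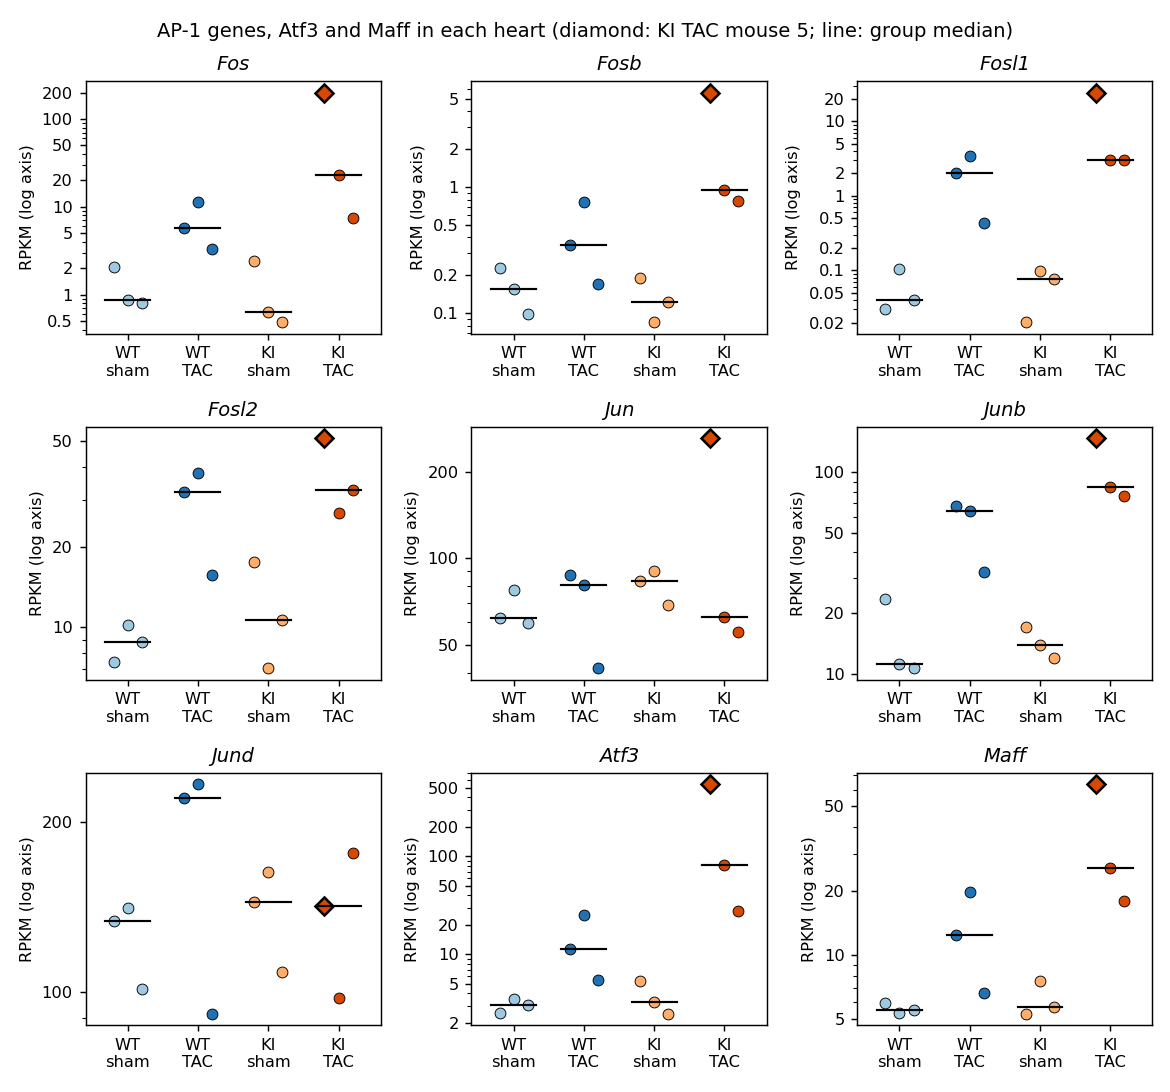
Each panel gives 1 gene, with RPKM on a log axis, the 4 groups side by side, a point for each mouse and a line at the group median. KI TAC mouse 5, drawn as a diamond, is the highest of the 12 hearts in 8 panels, and Jund is the exception.

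Junb (ENSMUSG00000052837, chromosome 8, 84974484 to 84978718, minus strand), a Jun protein that often opposes Jun, measured 23.6, 11.1 and 10.7 RPKM in WT sham mice 1, 2 and 3 and 17.1, 13.8 and 11.9 RPKM in KI sham mice 1, 2 and 3. After TAC it measured 67.7, 64.0 and 31.9 RPKM in WT mice 7, 9 and 10 and 147, 84.5 and 76.7 RPKM in KI mice 5, 6 and 7. The TAC hearts of both genotypes lay above all sham hearts, and each KI TAC heart lay above each WT TAC heart. Junb rose by 1.80 in WT (SE 0.35, limma adjusted p = 0.00525) and by 2.72 in KI hearts (SE 0.35, adjusted p = 0.000197). The KI rise was 2.43 without KI TAC mouse 5 (adjusted p = 0.00101). Both changes stayed past the threshold under all 13 alternatives tried for each. Between the TAC groups the KI value was higher by 0.92 (SE 0.35), which did not pass (adjusted p = 0.0972), and by 0.63 without KI TAC mouse 5 (adjusted p = 0.272). Prdx2, an abundant gene on the opposite strand, shares 7.52% of the exon bases of Junb, and its group means of 31.5 to 41.1 RPKM did not follow those of Junb.

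Jun (ENSMUSG00000052684, chromosome 4, 95049034 to 95052222, minus strand, 1 exon) measured 61.8, 77.8 and 59.4 RPKM in WT sham mice 1, 2 and 3 and 83.2, 90.3 and 69.0 RPKM in KI sham mice 1, 2 and 3. After constriction it measured 87.2, 80.6 and 41.5 RPKM in WT mice 7, 9 and 10 and 262, 62.5 and 55.3 RPKM in KI mice 5, 6 and 7. KI TAC mouse 5 was the highest of all, and the other KI TAC hearts lay below all 3 KI sham hearts. The fitted change was 0.01 in WT (SE 0.46, limma adjusted p = 0.992) and 0.27 in KI hearts (SE 0.46, adjusted p = 0.707). Without KI TAC mouse 5 the KI change was -0.44 (SE 0.29, adjusted p = 0.309), so its direction rested on that heart. A gene on the opposite strand, Junos, shares 7.28% of the exon bases of Jun and had group means of 0.111 to 0.245 RPKM.

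Jund (ENSMUSG00000071076, chromosome 8, 70698949 to 70700616, plus strand, 1 exon) measured 133, 141 and 101 RPKM in WT sham mice 1, 2 and 3 and 144, 163 and 108 RPKM in KI sham mice 1, 2 and 3. The TAC hearts gave 220, 233 and 91.4 RPKM in WT mice 7, 9 and 10 and 142, 97.7 and 176 RPKM in KI mice 5, 6 and 7. WT TAC mice 7 and 9 were the highest of the 12 hearts and WT TAC mouse 10 the lowest, and the KI TAC and KI sham hearts overlapped. The change was 0.43 in WT (SE 0.33, limma adjusted p = 0.419) and -0.02 in KI hearts (SE 0.33, adjusted p = 0.969). The latter was -0.058 without KI TAC mouse 5 and turned to 0.11 with median-ratio scaling. The WT change of Jund ranged from 0.20 to 0.87 when 1 mouse was left out. Its lowest limma adjusted p over the alternatives was 0.0511. Jund is the member in which KI TAC mouse 5 did not stand apart. Gm11175, on the opposite strand, shares 52.6% of the exon bases of Jund and was not analysed here, so the level of Jund carries that uncertainty.

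Atf3 (ENSMUSG00000026628, chromosome 1, 191170296 to 191218039, minus strand) is induced by many stresses and by the factor Atf4, and its product mostly represses its targets when it binds as a homodimer. It measured 2.54, 3.51 and 3.08 RPKM in WT sham mice 1, 2 and 3 and 5.36, 3.31 and 2.47 RPKM in KI sham mice 1, 2 and 3. After TAC it measured 11.5, 25.2 and 5.49 RPKM in WT mice 7, 9 and 10 and 545, 82.1 and 27.9 RPKM in KI mice 5, 6 and 7. Each TAC heart was above every sham heart, and each KI TAC heart was above every WT TAC heart. The group means were 3.04 ± 0.486 and 14.1 ± 10.1 RPKM in WT sham and WT TAC hearts, and 3.71 ± 1.48 and 218 ± 284 RPKM in KI sham and KI TAC hearts (SD, n = 3 mice each). The SD of the KI TAC group exceeded its mean, and its median was 82.1 RPKM, against 11.5 RPKM in WT TAC hearts. Atf3 rose by 4.58 in KI hearts (SE 0.76, limma adjusted p = 0.00109), and by 3.43 without KI TAC mouse 5 (adjusted p = 0.00107). In WT hearts the change was 1.68 (SE 0.76, adjusted p = 0.170), which passed without KI TAC mouse 5 (SE 0.46, adjusted p = 0.0306).

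Between the TAC groups, Atf3 had the largest difference of the set. It was higher in KI than in WT TAC hearts by 3.09 (SE 0.76, limma adjusted p = 0.0245), and by 1.93 without KI TAC mouse 5 (SE 0.51, adjusted p = 0.0466). Without both that mouse and the filter, the fit also used for Fosb, this difference did not pass (1.93, adjusted p = 0.0534). Of 13 alternatives that changed 1 choice each, in which only TAC mice were left out, 9 kept this call, and adjusted p ranged from 0.00389 to 0.0949. It was lost without WT TAC mouse 7 (3.07, adjusted p = 0.0949), WT TAC mouse 10 (2.60, adjusted p = 0.0728) or KI TAC mouse 6 (3.29, adjusted p = 0.0758), and when only the 2 TAC groups were fitted (adjusted p = 0.0938). An exact permutation test of 3 mice against 3 gave a two-sided p of 0.1 for Atf3, which is the smallest such a test can give.

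Maff (ENSMUSG00000042622, chromosome 15, 79346621 to 79359076, plus strand) was the steadiest member in WT sham hearts, at 5.98, 5.38 and 5.55 RPKM in mice 1, 2 and 3, and measured 5.30, 7.59 and 5.69 RPKM in KI sham mice 1, 2 and 3. TAC values were 12.4, 19.8 and 6.64 RPKM in WT mice 7, 9 and 10 and 63.6, 25.7 and 18.0 RPKM in KI mice 5, 6 and 7. TAC and sham hearts did not overlap within a genotype, and KI TAC mouse 7 lay just below WT TAC mouse 9. Maff rose by 2.17 in KI hearts (SE 0.39, limma adjusted p = 0.00182), and by 1.66 without KI TAC mouse 5 (adjusted p = 0.00502). In WT hearts the change was 0.96 (SE 0.39, adjusted p = 0.131), and it passed without KI TAC mouse 5 (adjusted p = 0.0486, but 0.0534 if the filter was dropped too) or without WT TAC mouse 10 (1.33, adjusted p = 0.0376). Leaving out 1 mouse gave WT changes of Maff from 0.61 to 1.33. KI TAC hearts exceeded WT TAC hearts by 1.31 (SE 0.39, adjusted p = 0.0476), a call that 5 of the same 13 alternatives kept. Without KI TAC mouse 5 this difference was 0.81 (adjusted p = 0.138), and it was also lost without WT TAC mouse 7 (1.34), WT TAC mouse 10 (0.94) or KI TAC mouse 6 (1.44), without a filter, with either other scaling and when only the 2 TAC groups were fitted.

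The comparison of TAC groups uses the same TAC hearts as the comparisons with sham, so their results are not independent. Counted together, 2 of the 8 members tested rose after TAC in WT hearts (Fosl2 and Junb) and 6 of 8 in KI hearts (Fos, Fosl1, Fosl2, Junb, Atf3 and Maff), and none fell in either genotype. Of all 11240 genes tested, 6.96% rose and 4.6% fell in WT hearts, and 8.57% rose and 14.7% fell in KI hearts. The median change of the 8 members was 1.42 in WT and 2.44 in KI hearts, beside 0.04 and -0.10 over all genes tested. The count in KI hearts was the same without KI TAC mouse 5. In WT hearts 6 members passed without that mouse, the same 6 as in KI hearts, of which Maff did not pass when the filter was dropped too, and 5 passed when the 2 WT groups were fitted alone. Without WT TAC mouse 7 the WT count was 1. Fosl1 is among the members counted and had entered the test through its TAC values. The members were chosen with earlier results of these data known.

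By the order of the values alone, all 3 TAC hearts lay above all 3 sham hearts in 6 of the 9 members in WT (Fos, Fosl1, Fosl2, Junb, Atf3 and Maff) and in 7 of 9 in KI hearts (these and Fosb). Among all genes tested this held for 20.0% in WT and 13.6% in KI hearts. In KI against WT TAC hearts, it held for Fosb, Junb and Atf3, 3 of 9 members, beside 10.1% of all genes tested. KI TAC hearts exceeded WT TAC hearts past the threshold in 2 of 8 members (Atf3 and Maff), beside 2.92% of all genes higher and 8.13% lower. Of these only Atf3 remained when KI TAC mouse 5 or any 1 sham mouse was left out, none remained when KI TAC mouse 6, WT TAC mouse 7 or WT TAC mouse 10 was left out, and 4 members passed when KI TAC mouse 7 was. The split of all genes into higher and lower depended on the scaling: with median-ratio scaling, 643 genes were higher and 604 lower between the TAC groups, against 328 and 914 as deposited, 1436 were higher and 1350 lower after TAC in KI hearts, against 963 and 1657, and quantile normalization gave 751 higher and 809 lower in WT hearts, against 782 and 517. The median of all genes in the comparison of TAC groups moved from -0.12 to 0.00 with median-ratio scaling, and the fitted differences of Atf3 and Maff kept their sign.

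**Figure D3:**
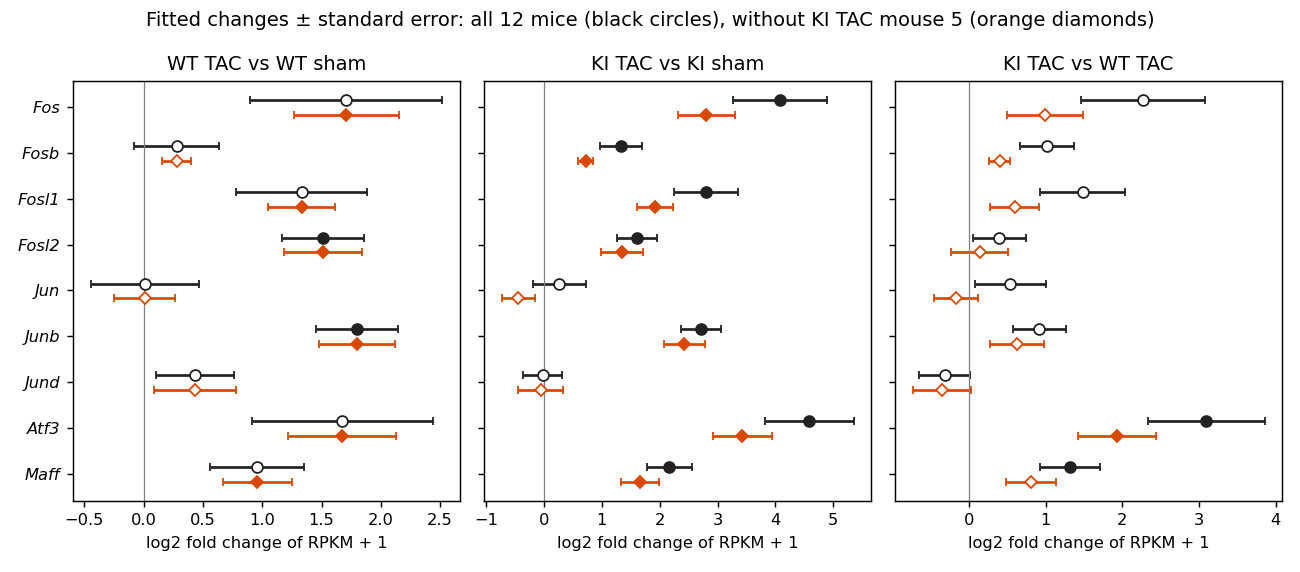
Points give the fitted log2 fold change of RPKM + 1 (horizontal axis) with its standard error for each of the 9 genes in 3 comparisons, filled where the adjusted p was under 0.05. In KI TAC against WT TAC hearts, Atf3 moves from 3.09 with all 12 mice (black circles) to 1.93 without KI TAC mouse 5 (orange diamonds), and in WT hearts the fitted changes stay in place while Fos, Fosl1, Atf3 and Maff turn from open to filled.

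An interaction term tested whether TAC acted differently on the members in the 2 genotypes. None of the 8 members passed in limma, and of all genes tested 0.0% passed. At an unadjusted p under 0.05 there were 2 members (Atf3 and Maff) and 1668 genes. The interaction of Atf3 was 2.91 (SE 1.08, limma adjusted p = 0.248) and that of Maff 1.21 (SE 0.56, limma adjusted p = 0.331). For Fos it was 2.37 (SE 1.14, adjusted p = 0.351). With KI TAC mouse 5 left out these were 1.75 for Atf3 (adjusted p = 0.287), 0.70 for Maff (adjusted p = 0.463) and 1.09 for Fos (adjusted p = 0.453), and the other 5 lay between -0.49 and 0.63. The larger count of members that rose in KI hearts is therefore not shown to be a difference between the genotypes. Between the sham groups no member passed, beside 0.0178% of all genes tested, and all 8 fitted differences lay between -0.11 and 0.30 with standard errors of 0.33 to 0.81. No member and 37 genes had an unadjusted p under 0.05 in this comparison.

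The hearts within a TAC group differed in the same order for most members. WT TAC mouse 10 was the lowest of its group in 9 of 9 members, and WT TAC mouse 9 the highest in 7. KI TAC mouse 7 was the lowest of its group in 6 members and KI TAC mouse 5 the highest in 8. In KI TAC hearts the highest value of Fos was 27.1 times the lowest, a ratio that 0.0979% of the genes tested exceeded, and for Atf3 it was 19.5 times (0.160%), next to a median of 1.5 times over all genes. In WT TAC hearts the ratios were 3.37 for Fos, 4.60 for Atf3 and 7.79 for Fosl1, with a median of 1.43 over all genes. In WT sham hearts, Maff, Jun, Fosl2, Atf3 and Jund varied by 1.11 to 1.39 times, while Junb, Fosb, Fos and Fosl1 varied by 2.22 to 3.40 times. In KI sham hearts Fos varied by 4.95 times, a ratio that 0.445% of the genes exceeded, Fosl1 by 4.86, Fosl2 by 2.50, Fosb by 2.24 and Atf3 by 2.17 times, and Jun, Maff, Junb and Jund by less than that. Over all genes tested, WT TAC mouse 10 had the highest value of the 12 hearts in 20.3%.

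Within each TAC group, the summed level of neutrophil markers ranked the hearts as Fos, Fosb, Atf3 and Maff did. Fosl1, Fosl2 and Jund departed from that order in the KI group, and Jun and Junb in the WT group. The summed levels of fibroblast and of smooth muscle markers had the reverse order in both TAC groups. Each such order is of 3 hearts, so few orders are possible. Of 6 markers 3 were measured (S100a8, S100a9 and Csf3r), and Cxcr2, Ly6g and Retnlg were not analysed here. Their summed level was 0.508 to 1.27 RPKM in WT sham and 0.395 to 0.505 RPKM in KI sham hearts. It was 5.37, 9.87 and 3.69 RPKM in WT TAC mice 7, 9 and 10 and 20.3, 11.3 and 4.18 RPKM in KI TAC mice 5, 6 and 7. The 3 markers did not share a direction between the TAC groups, where the KI minus WT difference was 0.68 for S100a8, 0.92 for S100a9 and -0.35 for Csf3r (limma adjusted p = 0.222, 0.109 and 0.252), and without KI TAC mouse 5 these were 0.30, 0.47 and -0.61, of which that of Csf3r passed (adjusted p = 0.0481). All 3 reached 1 RPKM only in TAC hearts. The 6 macrophage markers (Ptprc, Cd68, Adgre1, Csf1r, Cd14 and Lyz2) summed to 69.6 to 116 RPKM in WT sham, 151 to 203 RPKM in WT TAC, 76.1 to 101 RPKM in KI sham and 96.4, 91.9 and 114 RPKM in KI TAC mice 5, 6 and 7. Of the 5 tested, 4 rose in WT hearts (6.96% of all genes did), and 1 rose and 1 fell in KI hearts (8.57% and 14.7%). Between the TAC groups 0 were higher and 2 lower in KI hearts (2.92% and 8.13% of all genes). These were Adgre1 (-1.15, limma adjusted p = 0.0135) and Csf1r (-0.91, adjusted p = 0.00913). Without KI TAC mouse 5 they were -1.22 (adjusted p = 0.0291) and -0.95 (adjusted p = 0.0223). The 5 fibroblast markers (Col1a1, Pdgfra, Dcn, Tcf21 and Lum) summed to 549 RPKM in WT TAC mouse 10 and to 85.3 to 251 RPKM in the other 11 hearts. The 5 endothelial markers (Pecam1, Cdh5, Kdr, Tie1 and Egfl7) summed to 250.0 to 374 RPKM in the 12 hearts. The 4 smooth muscle markers (Myh11, Acta2, Tagln and Cnn1) summed to 35.5 to 44.8 RPKM in WT sham, 54.0 to 129 RPKM in WT TAC, 26.6 to 54.7 RPKM in KI sham and 41.2 to 81.9 RPKM in KI TAC hearts. Of these 4 only Cnn1 passed in any comparison. It rose in WT hearts (1.16, limma adjusted p = 0.00905), where Myh11 had a change of -0.08. Cnn1 was lower in KI than in WT TAC hearts (-0.98, adjusted p = 0.0261, and -1.05 without KI TAC mouse 5, adjusted p = 0.0475). It reached 1 RPKM only in TAC hearts. Of the 6 cardiomyocyte markers, only Myh6 passed in WT hearts (-1.15, limma adjusted p = 0.0129), where Actc1 went the other way (0.42, adjusted p = 0.359). Pln fell in KI hearts (-0.93, adjusted p = 0.0281), but did not pass without KI TAC mouse 5 (-0.87, adjusted p = 0.0808). Tnni3 was higher in KI than in WT TAC hearts (0.95, adjusted p = 0.0384), but not past the threshold without that mouse (1.02, adjusted p = 0.0617). Myh6 passed in that comparison only without that mouse (0.99, adjusted p = 0.0489). The part of these cells in the values of the members was not tested.

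The genes whose pattern over the 12 hearts was most like that of Atf3 were Smad1, a transducer of bone morphogenetic protein signals (Pearson's r = 0.990), Ifrd1, a transcriptional co-regulator (r = 0.990), and Sphk1, which makes sphingosine 1-phosphate (r = 0.987). Sphk1 measured 2.02, 6.01 and 1.13 RPKM in WT TAC mice 7, 9 and 10 and 48.5, 17.7 and 8.53 RPKM in KI TAC mice 5, 6 and 7, the same order of hearts as for Atf3. Those most like Fos were Rcl1 (r = 0.988), Dusp10, a phosphatase of JNK and p38 (r = 0.987), and Adpgk, an ADP-dependent glucokinase (r = 0.984). Dusp10 measured 3.44, 3.39 and 2.25 RPKM in WT TAC mice 7, 9 and 10 and 16.1, 6.12 and 3.33 RPKM in KI TAC mice 5, 6 and 7. These correlations are over 12 libraries on the log2 scale, they share the group differences, and KI TAC mouse 5 was the highest heart for each of these 6 genes. Over the other 11 libraries r was 0.977, 0.978 and 0.986 with Atf3 for Smad1, Ifrd1 and Sphk1, and 0.969, 0.968 and 0.968 with Fos for Rcl1, Dusp10 and Adpgk.

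Of 11 other zipper proteins of the same kind (Batf, Batf2, Jdp2, Atf1, Atf2, Atf7, Creb1, Crem, Maf, Mafg and Mafk), 9 were tested, and none passed in WT hearts. In KI hearts 1 rose and 1 fell after TAC, near the shares over all genes (8.57% and 14.7%), and the median change was 0.20, beside -0.10 over all genes. Mafk, a small Maf protein like Maff, rose by 1.28 (limma adjusted p = 0.00738), from 15.8, 20.0 and 18.9 RPKM in KI sham mice 1, 2 and 3 to 54.9, 40.2 and 43.0 RPKM in KI TAC mice 5, 6 and 7. Maf, a large Maf protein with an activation domain, fell from 9.81, 8.88 and 6.41 RPKM in KI sham mice 1, 2 and 3 to 3.14, 2.21 and 4.46 RPKM in KI TAC mice 5, 6 and 7 (log2 fold change -1.15, adjusted p = 0.00526). Between the TAC groups Maf was lower in KI hearts, while in WT hearts it measured 11.7, 10.8 and 7.51 RPKM in mice 7, 9 and 10 (log2 fold change -1.38, limma adjusted p = 0.00769). It was the list's only call between the TAC groups. Without KI TAC mouse 5 the KI changes were 1.15 for Mafk (adjusted p = 0.0320) and -1.14 for Maf (adjusted p = 0.0171), and the difference of Maf between TAC groups was -1.37 (adjusted p = 0.0237).

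Upstream of AP-1, 14 kinases and factors that act on these promoters were tested, namely the MAP kinases Mapk3, Mapk8, Mapk9, Mapk10 and Mapk14, the kinases above them Map2k3, Map2k4, Map2k6 and Map2k7, and the factors Srf, Elk1, Elk3, Elk4 and Mef2d. RNA levels do not show whether a kinase is active. None passed in WT hearts or between the TAC groups, and in KI hearts 2 rose and 3 fell, near the 8.57% and 14.7% of all genes, with a median of -0.27 beside -0.10 over all genes. With KI TAC mouse 5 left out, 0 rose and 1 fell, which was Map2k6 (-0.83, adjusted p = 0.00873). Map2k6 reached 1 RPKM only in sham hearts, so its inclusion in the test was not independent of its change. Map2k3 and Map2k6, which both activate p38, went opposite ways in KI hearts, with a rise of 0.83 for Map2k3 (limma adjusted p = 0.0188) and a change of -0.79 for Map2k6 (adjusted p = 0.00351). Mapk14, which encodes p38 alpha, fell from 30.6, 29.2 and 32.5 RPKM in KI sham mice 1, 2 and 3 to 16.3, 15.8 and 21.9 RPKM in KI TAC mice 5, 6 and 7 (log2 fold change -0.75, adjusted p = 0.0187). Neither Map2k3 (0.64, adjusted p = 0.0768) nor Mapk14 (-0.69, adjusted p = 0.0595) passed without KI TAC mouse 5.

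Of 6 genes of the integrated stress response (Atf4, Ddit3, Trib3, Chac1, Asns and Sesn2), the pathway in which Atf4 induces Atf3, 1 rose and 1 fell in WT hearts (6.96% and 4.6% of all genes did), and 2 rose and 1 fell in KI hearts (8.57% and 14.7% of all genes). Atf4 measured 15.7, 18.0 and 18.0 RPKM in KI sham mice 1, 2 and 3 and 95.7, 46.9 and 51.7 RPKM in KI TAC mice 5, 6 and 7, a rise of 1.78 (limma adjusted p = 0.000461), and of 1.46 without KI TAC mouse 5 (adjusted p = 0.00118). In WT TAC mice 7, 9 and 10 it measured 28.5, 36.8 and 21.04 RPKM, and it was the list's 1 gene that was higher in KI than in WT TAC hearts (log2 fold change 1.10, adjusted p = 0.0208). None of the 6 passed between the TAC groups without KI TAC mouse 5, where the difference of Atf4 was 0.79 (adjusted p = 0.0546). Asns, which makes asparagine and reached 1 RPKM only in TAC hearts, so that it entered the test through its high values, rose in both genotypes (0.62 in WT, adjusted p = 0.0462, and 0.82 in KI hearts, adjusted p = 0.00666). Chac1, which degrades glutathione and is a standard target of Atf4, fell in both (-1.39 in WT, adjusted p = 0.0175, and -1.55 in KI hearts, adjusted p = 0.00522). Their KI changes without KI TAC mouse 5 were 0.63 for Asns (adjusted p = 0.0285) and -1.90 for Chac1 (adjusted p = 0.00233). The list's median change was 0.07 in WT and -0.13 in KI hearts, beside 0.04 and -0.10 over all genes.

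Downstream, 17 of 19 genes known as AP-1 targets in textbooks were tested (Ccl2, Ccnd1, Cd44, Edn1, Hbegf, Hmox1, Lif, Mmp3, Mmp9, Mmp14, Mt1, Mt2, Plau, Plaur, Spp1, Tgfb1 and Timp1), while Il6 and Mmp13 were not analysed here. After TAC, 12 of 17 rose in WT and 12 of 17 in KI hearts, none fell, beside 6.96% and 8.57% of all genes that rose, and the medians were 1.15 and 1.26, beside 0.04 and -0.10 over all genes. Of these targets Ccl2, Lif, Mmp3, Mmp9 and Spp1 reached 1 RPKM only in TAC hearts and so entered the test through their TAC values. They are 5 of the 12 that rose in WT hearts and, without Spp1, 4 of the 12 in KI hearts. The list was also chosen with earlier results of these data known. Its counts beside the shares of all genes are therefore not independent of these data. Without KI TAC mouse 5 the counts were 12 and 11. Timp1, an inhibitor of matrix proteases, had the largest WT rise of the list, from 0.666, 0.333 and 0.369 RPKM in sham mice 1, 2 and 3 to 52.7, 33.1 and 39.7 RPKM in TAC mice 7, 9 and 10 (log2 fold change 4.86, limma adjusted p = 4.70e-08). Spp1 (osteopontin) and Ccl2, a monocyte attractant, followed in WT hearts with 3.10 (adjusted p = 5.70e-05) and 3.06 (adjusted p = 8.10e-05). In KI hearts the largest rises among these 17 were those of Mt2, a metallothionein (5.06, adjusted p = 7.21e-05), Hbegf, a ligand of the EGF receptor (4.23, adjusted p = 0.000186), and Ccl2 (3.74, adjusted p = 1.26e-05). Without KI TAC mouse 5 these rises were 4.94, 3.62 and 3.49, and all passed.

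Between the TAC groups 5 of the 17 targets were higher in KI hearts and 2 were lower (Spp1 and Timp1), beside 2.92% and 8.13% of all genes. Without KI TAC mouse 5, 4 were higher and 2 lower, but Timp1 no longer passed (adjusted p = 0.0596) and Mmp9 did (-0.51, adjusted p = 0.0469). Mt2 measured 16.9, 69.3 and 9.38 RPKM in WT TAC mice 7, 9 and 10 and 246, 254 and 146 RPKM in KI TAC mice 5, 6 and 7, a difference of 3.16 (limma adjusted p = 0.00638). Mt1 was higher by 2.10 (adjusted p = 0.00940). In neither of these was KI TAC mouse 5 the highest heart, and without it the differences were 3.04 for Mt2 (adjusted p = 0.0228) and 2.12 for Mt1 (adjusted p = 0.0281). Spp1 went the other way, with 6.73, 4.35 and 16.0 RPKM in WT TAC mice 7, 9 and 10 and 0.561, 0.824 and 1.37 RPKM in KI TAC mice 5, 6 and 7 (log2 fold change -2.23, adjusted p = 0.00395), and the difference without KI TAC mouse 5 was -2.10 (adjusted p = 0.0114). Spp1 reached 1 RPKM only in the WT TAC hearts and KI TAC mouse 7. Its inclusion in the test was therefore not independent of this difference. Here WT TAC mouse 10, the lowest of its group in all 9 members, was the highest. Metallothioneins and Hmox1 also respond to glucocorticoids, metals or other stress, so the list is not specific to AP-1. None of the 17 passed in the interaction.

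**Figure D4:**
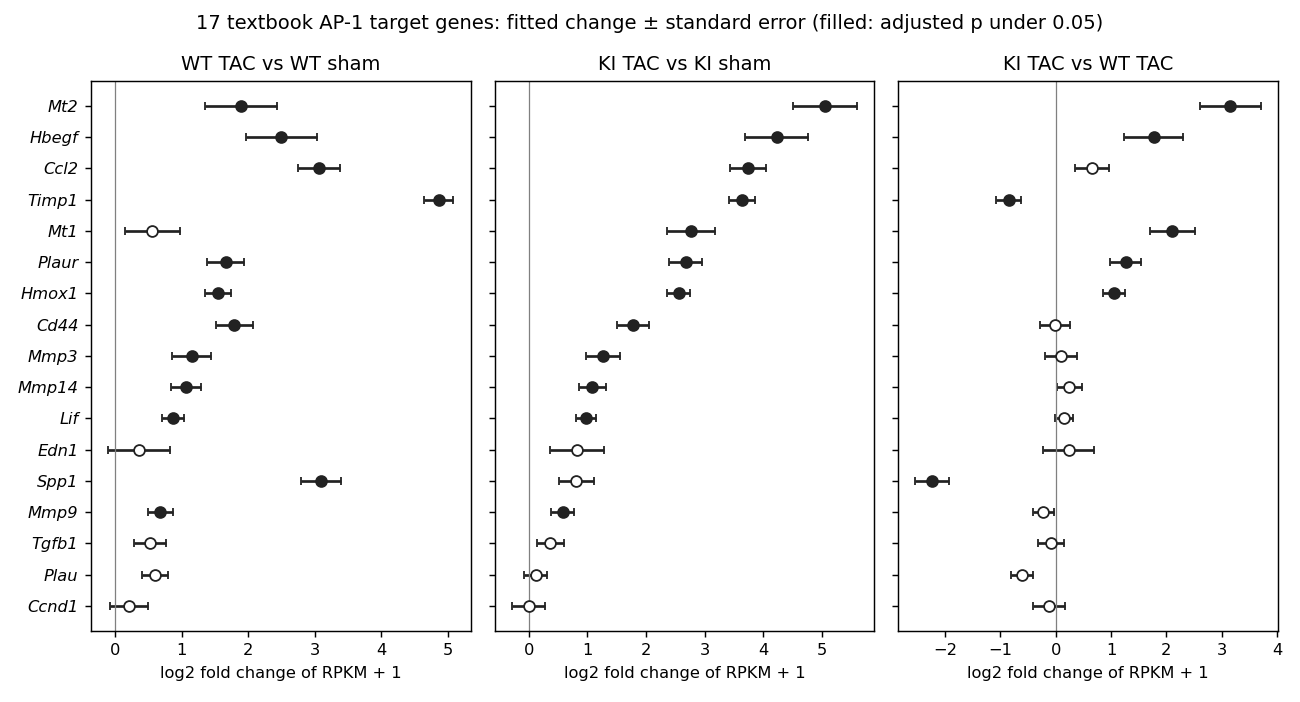
The 17 AP-1 target genes are ordered by their KI change, and each point gives the fitted log2 fold change of RPKM + 1 (horizontal axis) with its standard error, filled where the adjusted p was under 0.05. Mt2 is the farthest to the right in KI TAC against WT TAC hearts at 3.16, and Spp1 the farthest to the left at -2.23.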

How the data were processed

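Groups were taken from the sample labels for genotype and treatment, with 3 mice in each of 4 groups. The authors trimmed reads with Trimmomatic 0.39, mapped them with HISAT2 2.2.1 to GRCm38 and counted them with HTSeq 0.6.1. The deposited values were found to be RPKM: multiplied by GENCODE M21 exon lengths they sum to nearly 1 total in all mice, and 96.0% to 98.2% of low values were whole multiples of 1 read within 0.05 reads. The methods describe the library as strand-specific and paired-end and the sequencing as single-read, and the gene filter and the strand setting of the counting are not given in the sources used here.

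The test used log2(RPKM + 1) of the genes that reached 1 RPKM in 3 mice or more (11240 genes, 8 of the 9 members). A model of 12 mice in 4 groups was fitted with lmFit and eBayes (trend on) of limma 3.58.1, run in R 4.3.3, with Benjamini-Hochberg adjustment over all genes tested and a threshold of 0.05. The authors used edgeR, which needs counts. The model was also run on simulated reads with known changes, and the outcome is not reported here.

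A few listed genes are not reported here and are left out of the counts. The members and the gene lists were chosen with earlier results of these data known. Named are all 10 members, from each list and comparison at most the 3 genes with the largest change past the threshold, and the 3 tested genes most correlated with Atf3 and with Fos. Alternatives were a pseudocount of 0.1 RPKM, no filter, a mean of at least 1 RPKM, quantile normalization, median-ratio scaling, limma-voom on recovered reads, a fit of 2 groups, a threshold of 0.10, an added minimum of 1 for the absolute log2 fold change, and leaving out each mouse. The fit without KI TAC mouse 5 and without the filter was added after seeing the data, for Fosb first. Promoter windows came from RefSeq tables, cut to the 250 bases before each start. Plots were drawn with matplotlib 3.10.9 in Python 3.11.15.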

Additional observations from a re-analysis of the deposited data

How the results depend on the processing

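The 6 members that rose in KI hearts did so in every fit, with Fosb as a seventh in the fit without a filter, and leaving out any 1 of the 12 mice gave 6 each time. No member passed between the sham groups or in the interaction under any alternative. In WT hearts the count of members was 2. It was 3 with a pseudocount of 0.1 RPKM or with limma-voom, and 5 in the fit of the 2 groups alone. When 1 mouse was left out, it ranged from 1 to 6. The count of 6 omits KI TAC mouse 5 and the count of 1 omits WT TAC mouse 7. Between the TAC groups the count was 2, it was 1 without a filter, with quantile normalization or with median-ratio scaling, 0 in the fit of the 2 groups alone and 5 at an adjusted p of 0.10, and it ranged from 0 to 4 when 1 mouse was left out, where omitting KI TAC mouse 7 gave 4, and omitting KI TAC mouse 6, WT TAC mouse 7 or WT TAC mouse 10 gave 0. A fit of the 2 groups alone estimates the spread from 6 hearts, and the cause of the other changes was not tested.

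Signs turned for changes that passed in no fit. The largest of these was the difference of Jun between the TAC groups. It was 0.54 (SE 0.46) with all mice and -0.17 without KI TAC mouse 5. With median-ratio scaling, the WT change of Jun was -0.020 and the KI change of Jund 0.11. Leaving out 1 mouse gave ranges of -0.18 to 0.34 for the WT change of Jun, -0.44 to 0.67 for its KI change, -0.17 to 0.94 for its difference between TAC groups and -0.45 to 0.66 for its interaction, of -0.21 to 0.21 for the KI change of Jund, and of -0.28 to 0.40 for the interaction of Fosl2. Of 500 refits of single members outside the comparison of sham groups, 449 kept direction and side of the threshold, 15 lost the threshold (14 of them Atf3 or Maff between the TAC groups), 15 gained it and 21 turned sign. For the TAC groups, refits that left out a sham mouse are not in this tally. Maff lost the threshold in each of those refits too. The fit without both KI TAC mouse 5 and the filter, added after seeing the data, called 5 members in WT hearts, 7 in KI hearts and 0 between the TAC groups.

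The sham groups share 3 mouse numbers and the TAC groups only the number 7, which is too few for a block, and the numbers do not come from shared animals. Deviations of same-numbered sham mice correlated at -0.225, -0.302 and 0.440 across genes, and with the replicate block on the 6 sham hearts 0 members and 0 of 11240 genes passed. At sham levels of 9 and 12 reads per group, Fosl1 cannot be measured precisely, and its fold change depends on the pseudocount.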
